A study of Mus musculus with 11 samples.

Results

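The 7 genes described here encode MHC class II chains, the proteins that load them with peptide, and the regulator that switches them on. They are H2-Aa, H2-Ab1, H2-Eb1, H2-DMa, H2-DMb1, Cd74 and Ciita, found by gene symbol among the 54532 genes of a read count table of whole mouse pancreas. The study asked how age alters the start of pancreatitis. Messenger RNA was sequenced from C57BL/6JRj mice, with 1 library per numbered mouse. Young mice were 7 weeks old and aged mice 18 months old. The untreated groups held 3 young and 2 aged mice, the latter numbered 2 and 3. The treated groups held 3 young and 3 aged mice that received caerulein, a peptide that acts like cholecystokinin and overstimulates acinar cells, in 4 hourly intraperitoneal injections of 125 µg/kg, and their libraries carry the label 5H. The sampling time counted from the first injection can be read in more than 1 way in the labels, and no vehicle-injected group is named there. The mice carry no transgene by the labels, and all ate laboratory chow.

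MHC class II molecules are pairs of an alpha and a beta chain that show peptides from the endosome to CD4 T cells. Dendritic cells, B cells and many macrophages make them, whereas acinar cells, which fill most of the pancreas, are not known for doing so. The invariant chain, encoded by Cd74, blocks the groove until it is cut away in the endosome, and H2-DM then exchanges its last fragment for a peptide. Ciita does not bind DNA itself but docks on RFX, CREB and NF-Y proteins assembled at the class II promoters.

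That shared docking site is why 3 promoters are shown here. RefSeq promoter windows (GRCm38.p6) were found for 4 of the 7 genes, namely H2-Aa, H2-Eb1, H2-DMb1 and H2-DMa. H2-Ab1, Cd74 and Ciita had none, and the 2 H2-DMa windows lie 12350 and 9664 bases from the start of the counted gene and are not shown. The 150 bases before the RefSeq start are given below on the gene's own strand, at chr17:34287824-34287973 (minus strand) for H2-Aa, chr17:34305717-34305866 (plus strand) for H2-Eb1 and chr17:34153041-34153190 (plus strand) for H2-DMb1. Capitals mark GNAAC, the core letters of the X box that RFX proteins recognise, and ATTGG, the letters of the Y box that NF-Y recognises.
H2-Aa: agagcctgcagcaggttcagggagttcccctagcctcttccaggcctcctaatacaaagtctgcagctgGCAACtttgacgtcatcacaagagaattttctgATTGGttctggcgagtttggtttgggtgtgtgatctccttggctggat
H2-Eb1: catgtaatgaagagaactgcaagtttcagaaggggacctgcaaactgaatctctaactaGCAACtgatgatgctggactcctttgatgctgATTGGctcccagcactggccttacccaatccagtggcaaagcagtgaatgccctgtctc
H2-DMb1: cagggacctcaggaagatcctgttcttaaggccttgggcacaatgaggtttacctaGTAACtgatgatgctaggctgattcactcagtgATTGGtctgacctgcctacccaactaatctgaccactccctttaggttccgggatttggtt

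The 2 elements were spaced alike in these promoters, with 28 bases between them in H2-Aa, 27 in H2-Eb1 and 28 in H2-DMb1. Counted back from the RefSeq start, the pair ran from base -81 to -44 in H2-Aa, from -91 to -55 in H2-Eb1 and from -94 to -57 in H2-DMb1. That start lies 119 bases inside the counted H2-DMb1 gene, so its pair falls within the gene model used for counting, while the H2-Aa and H2-Eb1 starts lie within 10 bases of theirs. GNAAC followed by ATTGG after 25 to 30 bases, searched on both strands, occurred in 343 of 32851 RefSeq windows of 300 bases (1.044%), while ATTGG alone was in 37.41% and GNAAC alone in 84.85%. The spacing was chosen after these sequences had been seen. The windows of H2-Oa, H2-Ob and H2-Eb2, further class II chain genes, also held the pair, and those of H2-DMb2 and of both H2-DMa starts did not. A match describes letters only.

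Before any comparison, the library of young untreated mouse 2 has to be set apart. It held 23719 reads of the 7 genes, against 455 to 1748 in the other 10 libraries. Each gene was 12.4 to 35.0 times its mean in the other 2 young untreated libraries, the least in H2-DMb1 and the most in Ciita. Markers of lymphoid tissue were high in the same library. The 10 B cell markers summed to 207 CPM (counts scaled to a common library size, here by total reads), with none at 0, against 0.0855 to 1.69 elsewhere, where 2 to 8 of the 10 were at 0. The 10 T and NK cell markers summed to 113 CPM against 0.0618 to 1.12, and the lymph node stroma markers to 57.6 CPM against 0 to 1.05. The 5 fat cell markers summed to 256 CPM against 6.97 to 28.5. The part of these cells in the class II values of this library was not tested. The 8 acinar markers summed to 373929 CPM in it and to 292479 to 399766 CPM in the other 10. Totals ran from 14223190 to 26537091 reads, and every test of the 7 genes below is given with and without young untreated mouse 2.

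**Figure D1:**
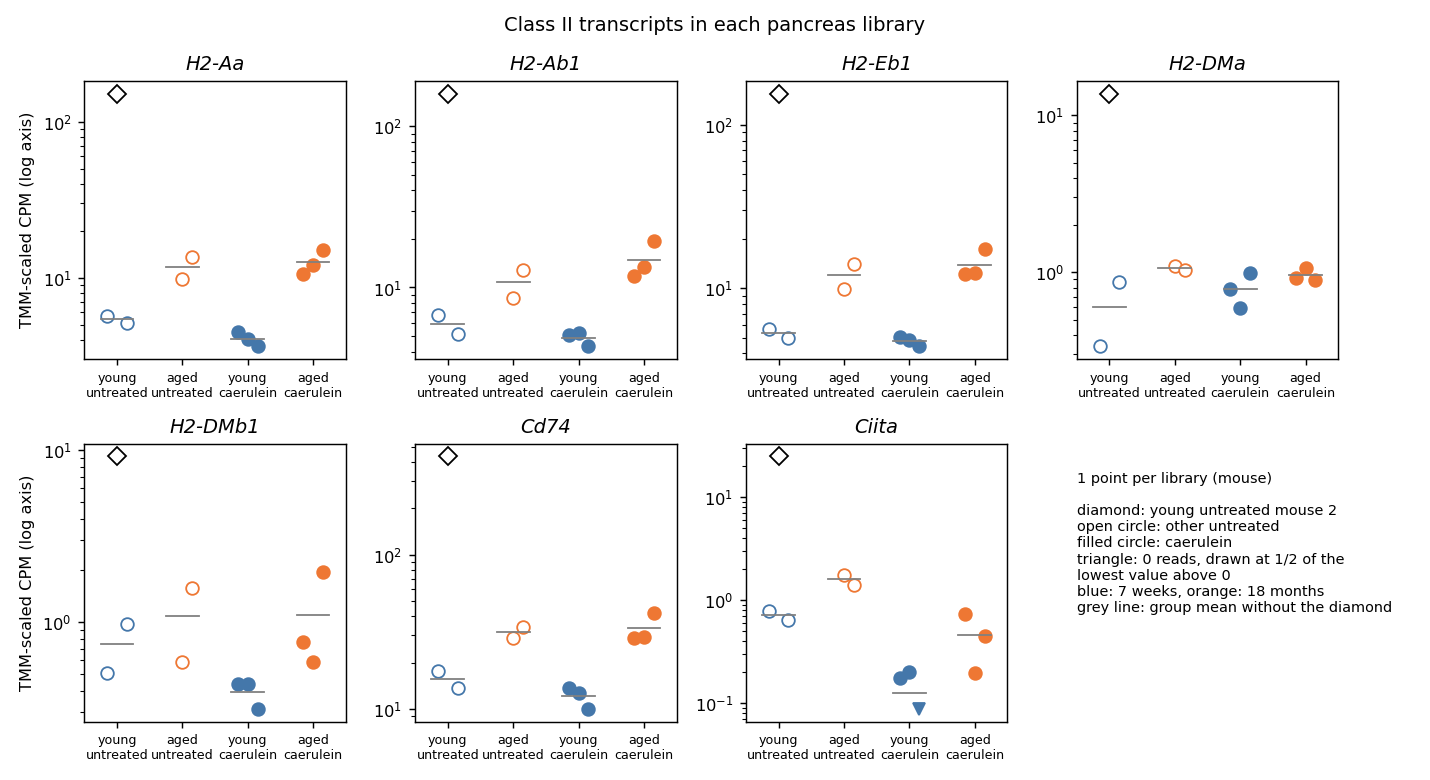
Each panel plots 1 gene's level in TMM-scaled CPM on a log axis, with 1 point per library in 4 groups. The diamond is young untreated mouse 2, grey lines are group means without it, and the triangle is a library with 0 Ciita reads. Aged points lie above young points for H2-Aa, H2-Ab1, H2-Eb1 and Cd74, while treated Ciita points lie low.

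H2-Aa and H2-Ab1 encode the alpha and beta chains of the A molecule, and H2-Eb1 encodes the beta chain of the E molecule. C57BL/6 mice lack a working E alpha gene, so that last chain has no partner at their cell surface. All 3 genes lie on chromosome 17 of mm10, H2-Aa at 34282744-34287827 on the minus strand, H2-Ab1 at 34263209-34269418 and H2-Eb1 at 34305877-34316199, both on the plus strand. On the TMM scale (CPM after a correction for library composition), H2-Aa stood at 5.73 and 5.12 CPM in young untreated mice 1 and 3 and at 151 CPM in mouse 2. It stood at 9.83 and 13.5 CPM in the aged untreated mice, at 4.53, 4.07 and 3.64 CPM in the young caerulein mice and at 10.6, 12.04 and 15.04 CPM in the aged caerulein mice. Apart from young untreated mouse 2, every aged library was above every young one. The share of all genes separated in this way was not counted, here or for the genes below.

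H2-Ab1 showed the same separation of the ages. Its levels were 6.80, 159 and 5.12 CPM in young untreated mice 1 to 3, 8.65 and 12.8 CPM in the aged untreated mice, 5.05, 5.26 and 4.31 CPM in the young caerulein mice and 11.8, 13.4 and 19.4 CPM in the aged caerulein mice. H2-Eb1 gave 5.68, 155 and 4.95 CPM, then 9.91 and 14.1 CPM, then 5.01, 4.82 and 4.42 CPM, and 12.2, 12.3 and 17.4 CPM in the same order. The 3 chain genes thus took nearly the same values in each library.

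Cd74, on the plus strand of chromosome 18 at 60803848-60812646, was the most abundant of the 7. It stood at 17.7, 435 and 13.6 CPM in young untreated mice 1 to 3, at 28.7 and 34.2 CPM in the aged untreated mice, at 13.7, 12.6 and 9.98 CPM in the young caerulein mice and at 28.8, 29.3 and 42.0 CPM in the aged caerulein mice. Here too the ages did not overlap outside mouse 2. Cd74 gave 42.2% to 47.4% of the reads of the 7 genes in each of the 11 libraries, young untreated mouse 2 included at 45.9%.

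H2-DMa and H2-DMb1 encode the chains of the peptide exchanger and lie on the plus strand of chromosome 17 at 34135182-34139101 and 34153072-34160230. Both were scarce, with 6 to 24 reads of H2-DMa and 6 to 35 reads of H2-DMb1 per library outside young untreated mouse 2. H2-DMa ranged from 0.337 to 1.09 CPM over those 10 libraries, and H2-DMb1 from 0.312 to 1.94 CPM, with overlapping ages. In mouse 2 they reached 13.7 and 9.19 CPM. H2-DMb1 has a close copy, H2-DMb2, and H2-Eb1 has one in H2-Eb2, so the split of reads between copies is as the authors' counting left it.

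Ciita, the class II transactivator, lies on the plus strand of chromosome 16 at 10480059-10528418. It had 14, 622 and 11 reads in young untreated mice 1 to 3, and 21 and 26 reads in the aged untreated mice. Caerulein libraries held 4, 5 and 0 reads in the young mice and 19, 4 and 8 reads in the aged mice. Those counts correspond to 0.787, 24.9 and 0.633 CPM, then 1.76 and 1.41 CPM, then 0.174, 0.198 and 0 CPM, and 0.725, 0.195 and 0.444 CPM on the TMM scale. The 0 allows a level of up to 0.156 CPM, the worth of 3 reads in that library, by counting error alone. Within each age the treated libraries were below the untreated ones.

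Per kilobase of gene model, the order of the levels was Cd74, H2-Eb1, H2-Ab1 and H2-Aa in all 4 groups, then the DM genes, then Ciita. In the aged caerulein group the mean TMM CPM per kilobase was 23.7 for Cd74, 11.8 for H2-Eb1, 9.07 for H2-Ab1 and 6.70 for H2-Aa. H2-DMb1 stood at 0.739, H2-DMa at 0.584 and Ciita at 0.0477 on that scale. H2-DMa was ahead of H2-DMb1 among means of the young caerulein group and of the 3 young untreated libraries, and behind it elsewhere.

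Ranked by group mean without young untreated mouse 2, H2-Aa ran from 4.08 ± 0.446 CPM in young caerulein mice (SD, n = 3) through 5.43 ± 0.433 in young untreated mice (n = 2) and 11.7 ± 2.62 in aged untreated mice (n = 2) to 12.6 ± 2.26 in aged caerulein mice (n = 3). Cd74 followed the same order, at 12.1 ± 1.90, 15.7 ± 2.88, 31.5 ± 3.85 and 33.4 ± 7.44 CPM. The order was shared by H2-Ab1, at 4.87 ± 0.496, 5.96 ± 1.19, 10.7 ± 2.96 and 14.8 ± 4.01 CPM, and by H2-Eb1, at 4.75 ± 0.302, 5.31 ± 0.515, 11.998 ± 2.95 and 14.0 ± 2.96 CPM. In each of the 4 genes the step from young untreated to aged untreated was the widest, and the treated and untreated groups of 1 age did not differ past the test below. Ciita had another order, with young caerulein mice at 0.124 ± 0.108 CPM, aged caerulein mice at 0.455 ± 0.265, young untreated mice at 0.710 ± 0.109 and aged untreated mice at 1.59 ± 0.252 CPM. With all 3 young untreated mice, H2-Aa averaged 54.0 ± 84.2 CPM and Ciita 8.76 ± 13.9 CPM there.

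Aged and young mice were compared after caerulein first, because young untreated mouse 2 is in neither of those groups. Class II chain genes and Cd74 were about 3-fold higher in the aged pancreas. Without mouse 2 in the fit, edgeR's quasi-likelihood test put H2-Aa at 3.01-fold (log2 fold change 1.59 ± 0.17, SE, adjusted p = 6.05e-05), H2-Ab1 at 2.97-fold (1.57 ± 0.21, adjusted p = 0.000253), H2-Eb1 at 2.88-fold (1.52 ± 0.17, adjusted p = 0.000101) and Cd74 at 2.70-fold (1.43 ± 0.17, adjusted p = 0.000113). These 4 of 7 genes were called higher (adjusted p below 0.05 over all genes), against 7.85% of the 13567 genes tested. Values were lower in 3 of 3 young mice than in any of the 3 aged mice for each of the 4. These are the values behind the calls, and the share of all genes separated in this way was not counted. The other 3 did not pass, with H2-DMb1 at 1.41 ± 0.56 (adjusted p = 0.115), Ciita at 1.75 ± 0.72 (adjusted p = 0.124) and H2-DMa at 0.27 ± 0.41 (adjusted p = 0.722). The median log2 fold change was 1.52 over the 7 genes and -0.01 over all genes. In bulk tissue, more cells of a class II-bearing type and more RNA per cell cannot be told apart.

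With all 11 libraries in 1 fit, none of the 7 was called in that comparison, where 3.73% of the 14113 genes tested were. No unadjusted p was below 0.05, and DESeq2, which gave 2 of the 7 an adjusted p, called none either. The fold changes hardly moved (H2-Aa 1.62 ± 1.04, Cd74 1.46 ± 1.00), but their standard errors were larger, since the 4 groups share 1 estimate of the spread. A fit of the 2 caerulein groups alone, which mouse 2 does not enter, called the same 4 genes of 6 tested. In that fit 7.81% of 12439 genes were called higher. The 4 genes were also called in 10 of 10 fits that left out mouse 2 and 1 more library, with log2 fold changes of 1.44 to 1.71 for H2-Aa and 1.23 to 1.54 for Cd74. The authors' deposited table for the same comparison lists log2 fold changes of 1.60 for H2-Aa (adjusted p = 1.37e-11), 1.58 for H2-Ab1, 1.53 for H2-Eb1 and 1.44 for Cd74, and lists Ciita at 1.82 with an adjusted p of 1.

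**Figure D2:**
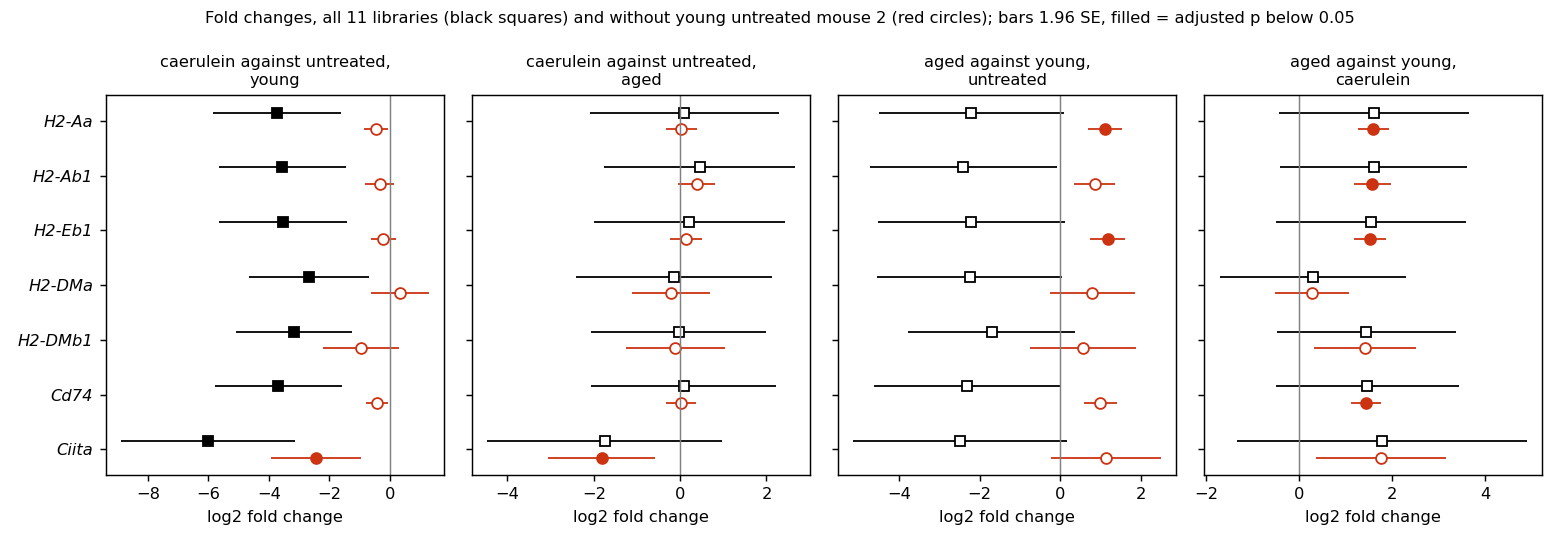
Log2 fold changes (x axis) of the 7 genes (rows) in 4 comparisons (panels), fitted with all 11 libraries (black squares) and without young untreated mouse 2 (red circles). Bars are approximate 95% intervals, taken from the SE with a normal quantile, and are narrower than the quasi-likelihood test implies. Filled symbols have an adjusted p below 0.05. In the panel of aged against young caerulein mice, the circles of H2-Aa, H2-Ab1, H2-Eb1 and Cd74 are filled between 1.43 and 1.59.

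Among untreated mice the direction depended on young untreated mouse 2. Without it, H2-Aa was 2.15-fold (log2 1.11 ± 0.21, adjusted p = 0.0425) and H2-Eb1 2.26-fold (1.18 ± 0.22, adjusted p = 0.0402) higher in the 2 aged mice than in the other 2 young mice. That made 2 of 7 genes called higher, against 0.258% of all genes tested. Cd74, at 1.00 ± 0.21 (adjusted p = 0.0691), H2-Ab1, at 0.85 ± 0.26 (adjusted p = 0.327), and Ciita, at 1.13 ± 0.70 (adjusted p = 0.723), did not pass, nor did H2-DMa (0.80) or H2-DMb1 (0.57). Median log2 fold changes were 1.00 over the 7 genes and -0.00 over all genes. With mouse 2 in the fit the estimates had the other sign, from -2.48 for Ciita to -1.70 for H2-DMb1, none of the 7 was called by edgeR, no unadjusted p was below 0.05, and DESeq2 called none of the 2 genes it gave an adjusted p. There 0.0921% of all genes were called. Of the 10 fits that left out mouse 2 and a second library, 2 called H2-Aa, 3 called H2-Eb1 and 1 called Cd74, and their adjusted p reached 0.575 for H2-Aa without aged untreated mouse 3.

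Caerulein was compared with no treatment at each age. In young mice with all libraries, the 7 genes were all called lower after caerulein, against 24.7% of all genes tested, and the median log2 fold change was -3.55 (-0.06 over all genes). Cd74 was at -3.69 ± 1.07 (adjusted p = 0.0141), H2-Aa at -3.73 ± 1.08 (adjusted p = 0.0137) and Ciita at -6.01 ± 1.47 (adjusted p = 0.00539). Those values rest on young untreated mouse 2. Without it, 1 of 7 genes was called lower, against 26.8% of all genes, and the median was -0.42 (0.01 over all genes). Leaving out young caerulein mouse 1, 2 or 3 in its place left 3, 3 or 2 genes called. Of all genes, 46.5%, 44.4% or 44.1% were called in either direction there, and 20.9%, 20% or 19.2% were called lower.

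The gene called in young mice without mouse 2 was Ciita, which fell by 2.44 ± 0.76 on the log2 scale (0.184-fold, adjusted p = 0.0138). The others were at -0.46 ± 0.20 for H2-Aa (adjusted p = 0.0680), -0.42 ± 0.19 for Cd74 (adjusted p = 0.0740), -0.34 ± 0.24 for H2-Ab1, -0.21 ± 0.21 for H2-Eb1, -0.94 ± 0.64 for H2-DMb1 and 0.33 ± 0.49 for H2-DMa. In aged mice the picture was alike in that respect. Ciita fell by 1.82 ± 0.63 (0.283-fold, adjusted p = 0.0242) and was the 1 gene of 7 called lower, against 27.6% of all genes. The remaining 6 lay between -0.21 for H2-DMa and 0.38 for H2-Ab1, with Cd74 at 0.01 ± 0.18. With all 11 libraries, none of the 7 was called in aged mice, where 48.2% of all genes were, no unadjusted p was below 0.05, and DESeq2 called none of the 2 it gave an adjusted p. Ciita was then at -1.75 ± 1.39 (adjusted p = 0.328). The authors' deposited table for aged mice lists Ciita at -1.81 (adjusted p = 0.0326), and their deposited table for young mice lists all 7 genes lower, with adjusted p-values of 0.0240 for H2-DMa, 0.00313 for H2-DMb1 and 1 for the others.

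The Ciita calls were not firm. With mouse 2 and 1 further library left out, the young call held in 9 of 10 fits and the aged call in 7 of 10. Leaving out young untreated mouse 1 ended the young call (adjusted p = 0.0766), and the aged call was lost without aged untreated mouse 2 (0.131), aged untreated mouse 3 (0.0771) or aged caerulein mouse 2 (0.0804). The scale also mattered. TMM factors were 0.696 to 0.798 in the untreated libraries other than young mouse 2 and 1.05 to 1.29 in the treated ones, so that scaling by library totals alone puts the median gene at 0.79 in young and 0.70 in aged mice, against 0.01 in both with TMM. On that scale and without mouse 2, Ciita was at -1.67 ± 0.78 (adjusted p = 0.0781) in young mice and at -1.17 ± 0.66 (adjusted p = 0.141) in aged mice. Cd74 was at 0.36 ± 0.23 in young mice, where its sign turned, and at 0.72 ± 0.23 in aged mice, below or near the median gene. H2-Aa, H2-Ab1, H2-Eb1 and Cd74, 4 of the 7, were called higher in aged mice on that scale, where 48.9% of all genes were.

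The share of Ciita in the reads of the 7 genes needs no scaling between libraries. Per 1000 such reads, Ciita gave 21.0 (exact 95% binomial interval 11.504 to 34.9), 26.2 (24.2 to 28.3) and 20.2 (10.1 to 35.9) in young untreated mice 1 to 3. In aged untreated mice it gave 29.1 (18.1 to 44.2) and 17.9 (11.7 to 26.1). Young untreated mouse 2 was within the range of the other untreated mice by this measure. After caerulein the share was 5.87 (1.60 to 14.97), 7.06 (2.30 to 16.4) and 0 (0 to 8.07) in young mice, and 11.03 (6.65 to 17.2), 2.83 (0.771 to 7.22) and 4.58 (1.98 to 8.998) in aged mice. All 6 treated libraries were below all 5 untreated ones. The intervals cover counting error only, and those of young untreated mice 1 and 3 overlap those of 2 young caerulein mice, as that of aged untreated mouse 3 overlaps that of aged caerulein mouse 1. This share was chosen after the values had been seen, and no test was made of it.

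**Figure D3:**
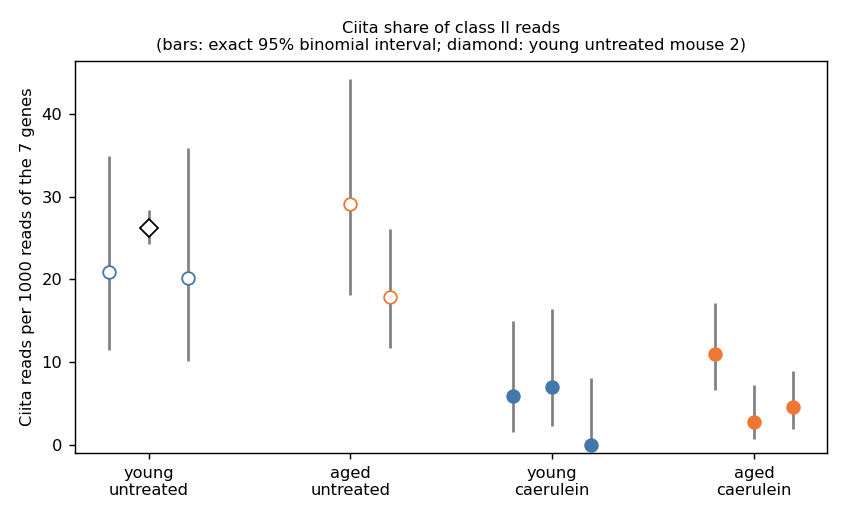
Ciita reads per 1000 reads of the 7 genes (y axis) in each library by group, with exact 95% binomial intervals as bars. Untreated libraries, open symbols with the diamond for young untreated mouse 2, lie at 17.9 to 29.1, and caerulein libraries, filled symbols, at 0 to 11.03.

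Whether the response to caerulein differed between ages was tested as the difference of the 2 log2 fold changes. None of the 7 genes was called in it by edgeR, with mouse 2 (0.0142% of all genes called) or without it (2.29%). Unadjusted p was below 0.05 for 4 genes with mouse 2 and for H2-Ab1 alone without it, and DESeq2 called none of the genes it gave an adjusted p. Without mouse 2 the difference was 0.72 ± 0.33 for H2-Ab1 (adjusted p = 0.327), 0.48 ± 0.27 for H2-Aa, 0.44 ± 0.26 for Cd74 and 0.62 ± 0.97 for Ciita. H2-Eb1 was at 0.35, H2-DMb1 at 0.83 and H2-DMa at -0.54. Intervals from the SE with a normal quantile ran from -0.08 to 0.95 for Cd74 and from -1.27 to 2.51 for Ciita. These are narrower than the quasi-likelihood test implies, and still leave room for sizeable differences. All these comparisons share libraries with each other.

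Cells that could carry class II were followed by their markers. The 12 macrophage markers, among them Csf1r, C1qa and Cd68, summed to 82.4, 105 and 54.5 CPM of library totals in the young caerulein mice and to 88.3, 108 and 136 CPM in the aged caerulein mice, so the ages overlapped. Without mouse 2, Lyz2 had the highest mean of the 12 in each group and weighs most in these sums. Its TMM-scaled means were 23.0 CPM in young and 27.8 CPM in aged caerulein mice. The 7 class II genes summed to 38.3, 34.6 and 28.1 CPM in the young and 69.3, 76.8 and 123 CPM in the aged ones. Per macrophage marker CPM, this came to 0.465, 0.331 and 0.515 in young and 0.785, 0.710 and 0.905 in aged caerulein mice, without overlap. Untreated mice gave 0.749 and 0.473 in young mice 1 and 3 and 0.806 and 1.14 in aged mice, and young untreated mouse 2 gave 2.45. Per CPM of the 10 dendritic cell markers, the 7 genes gave 8.05 and 6.63 in young untreated mice 1 and 3 and 5.42 and 9.37 in aged untreated mice, with overlap. Those markers summed to 3.51 CPM in both young mice and to 8.92 and 5.84 CPM in the aged mice, and their part in the untreated age difference was not tested. After caerulein the ratio was 3.15, 3.93 and 3.42 in young and 6.98, 8.18 and 10.99 in aged mice. Of the 10 dendritic markers, Zbtb46 had the highest mean in each group without mouse 2, so it weighs most in these sums. Its TMM-scaled means were 3.24 CPM in young and 6.59 CPM in aged untreated mice, and 6.47 and 5.40 CPM after caerulein. Against 8 pan-leukocyte markers the ratio was 2.02, 1.31 and 2.11 in young and 3.43, 2.64 and 3.70 in aged caerulein mice.

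**Figure D4:**
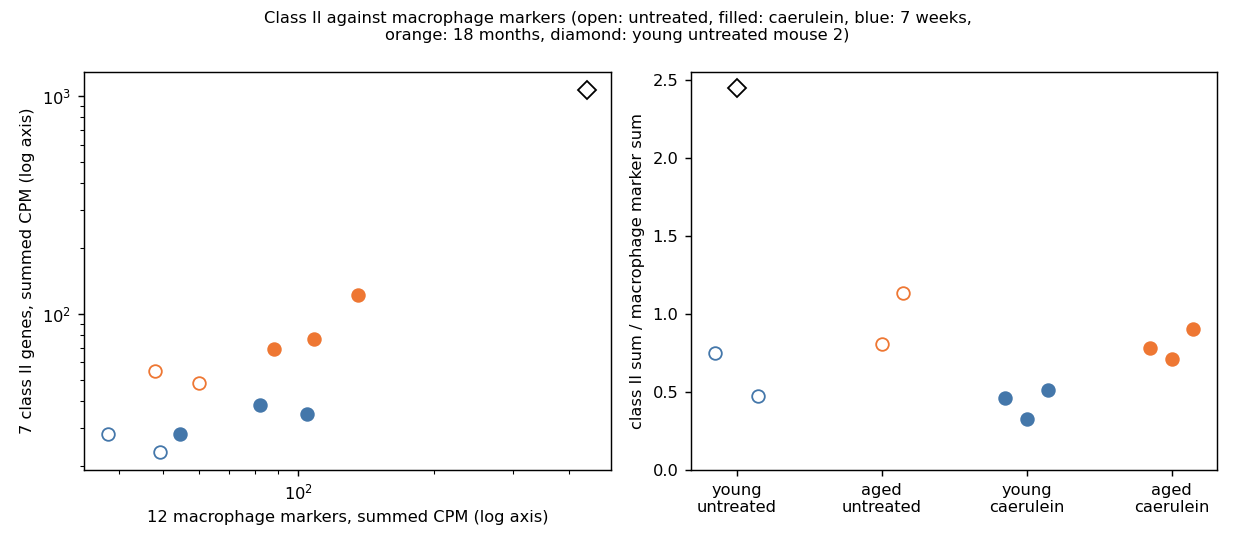
Left, the summed CPM of the 7 class II genes (y, log axis) against that of 12 macrophage markers (x, log axis), 1 point per library. Right, their ratio by group, with aged caerulein mice at 0.710 to 0.905 above young caerulein mice at 0.331 to 0.515; the diamond, young untreated mouse 2, is at 2.45.

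Single markers differed in how they moved with age. Of the 12 macrophage markers, 3 were called higher in aged than in young caerulein mice without young untreated mouse 2 and none lower, against 7.85% and 6.31% of all genes, namely Cd163, a haemoglobin scavenger receptor (1.37 ± 0.27), Fcgr1, an Fc receptor (1.31 ± 0.35), and Mrc1, the mannose receptor (0.88 ± 0.20). In the fit of all 11 libraries, 1 of the 12 was called higher, against 2.46% of all genes. Csf1r (0.26 ± 0.30) and Cd68 (-0.14 ± 0.27), general macrophage markers named here after their values were seen, did not pass. Of 10 dendritic cell markers, 4 were tested and 1, Cd209a, was called higher (5.31 ± 0.87). It stood at 1.49, 2.00 and 0.777 CPM in the aged and 0, 0.0790 and 0 CPM in the young caerulein mice. Of the 4 fold changes, 2 were positive and 2 negative. With mouse 2 in the fit, none of 5 tested dendritic markers was called by edgeR, 2 having an unadjusted p below 0.05. Flt3, Xcr1, Clec9a, Batf3, Siglech and Ccr7 were too low to be tested, and the sum over the 10 was 9.40 to 11.2 CPM in aged and 8.21 to 12.2 CPM in young caerulein mice. B cell markers, with 0 of 10 tested, gave 5 to 42 reads per aged and 2 to 9 reads per young caerulein library. The part of these cells in the class II difference was not tested.

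Further class II genes and the enzymes that cut the invariant chain and antigens formed a list of 13 symbols, of which 12 were in the table and 8 tested without mouse 2. H2-Oa and H2-Ob, whose products restrain H2-DM, and H2-DMb2 and H2-Eb2 were too low. After caerulein, 4 of the 8 were called higher and 2 lower at each age, against 30.8% and 26.8% of all genes in young and 30.7% and 27.6% in aged mice. The 4 were Lgmn, an asparaginyl protease (1.45 ± 0.21 young, 1.28 ± 0.21 aged), Ctsl (1.35 and 1.95), Ctsb (0.77 and 1.43) and Cd83, a surface protein that keeps class II on the membrane (4.17 and 1.99). Their direction held with library totals, but that scale raises fold changes after caerulein, so it could not have turned an increase. With all 11 libraries, 2 of the 8 were called higher and 4 lower in young mice, against 27.5% and 24.7% of all genes, and 2 higher and 2 lower in aged mice, against 27% and 21.2%.

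Ifi30, the thiol reductase of the antigen-processing endosome, fell by 2.44 ± 0.16 in young and 1.92 ± 0.16 in aged mice, and remained called lower with library totals. It stood at 21.5 and 23.1 CPM in young untreated mice 1 and 3, at 22.0 and 20.2 CPM in aged untreated mice, and at 3.44 to 6.66 CPM in the 6 treated mice. Ctsd, an aspartic protease, was called lower at -0.31 and -0.41, a direction that turned to 0.46 and 0.27 with library totals. Between the ages after caerulein, 2 of the 8 were called higher, against 7.85% of all genes, and 1 lower, against 6.31%. Ctss, the protease that takes the last step in cutting the invariant chain, was higher by 1.03 ± 0.23 (adjusted p = 0.00842), and Ctsb by 0.78 ± 0.09 (adjusted p = 0.000125). Ctsd was at -0.29 ± 0.09 (adjusted p = 0.0403). Of these 3, Ctsb alone was called with all 11 libraries (Ctss adjusted p = 0.591, Ctsd 0.193). Ctss stood at 2.83, 3.32 and 1.87 CPM in young and 4.39, 6.53 and 5.94 CPM in aged caerulein mice, without overlap. March1, a ubiquitin ligase that removes class II from the surface, did not pass in those comparisons (0.27 young, 0.02 aged and 0.96 between ages).

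The 7 DNA-bound partners of Ciita were all tested. Nfyb, of the NF-Y complex, rose by 2.77 ± 0.17 in young and 2.90 ± 0.17 in aged mice after caerulein, from 7.998 and 9.16 CPM in young untreated mice 3 and 1 to 53.8 to 67.0 CPM in young treated mice. Nfya (1.39 and 1.32) and Nfyc (0.43 and 0.75) were called higher too, which made 3 of 7 higher at each age, against 30.8% of all genes in young and 30.7% in aged mice. All 3 were also called higher with library totals, where 52.9% and 48.9% of all genes were. Rfxank, of the RFX complex, was called lower at both ages (-1.28 ± 0.25 and -1.27 ± 0.27), and Rfx5 (-1.07 ± 0.30) and Creb1 (-0.62) in aged mice, calls that library totals did not give (Rfxank -0.51 and -0.60, Rfx5 -0.38, Creb1 0.08). Rfxap did not pass at either age with TMM and was called higher with library totals (0.89 and 0.93). Including mouse 2, and with TMM, 2 were called higher and 1 lower in young mice, against 27.5% and 24.7% of all genes. In aged mice of that fit 3 were called higher and 2 lower, against 27% and 21.2%. Between the ages after caerulein, 1 of the 7 was called, Rfx5, lower in aged mice by either scaling (-0.91 ± 0.26, adjusted p = 0.0339), against 6.31% of all genes. The call was not made with all 11 libraries (adjusted p = 0.140). It stood at 2.74, 2.69 and 1.72 CPM in young and 1.41, 1.07 and 1.39 CPM in aged caerulein mice.

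Interferon gamma is the textbook inducer of Ciita, through its receptor, the JAK kinases and Irf1. Of the 11 genes listed for that route, 9 were tested without mouse 2. Ifng itself was at 0 reads in 9 of the other 10 libraries and at 1 read in aged caerulein mouse 3. After caerulein 3 were called higher in young mice, including Ifngr1, a receptor chain (1.98 ± 0.14), and 5 in aged mice, with Ifngr1 at 1.08 ± 0.14 and Irf8, a myeloid transcription factor, at 1.44 ± 0.58, and none was called lower at either age. The shares of all genes called higher were 30.8% and 30.7%. Ifngr2 was called at both ages (0.79 and 0.81), Irf2 in young mice (0.70) and Jak1 (0.30) and Jak2 (0.84) in aged mice. Including mouse 2, 10 were tested. In that fit 1 was called higher and 2 lower in young mice, against 27.5% and 24.7% of all genes, and 2 higher in aged mice, against 27%. Irf1 (-0.28 young, -0.74 aged) did not pass. Between the ages after caerulein, none was called higher and 2 lower, Ifngr1 (-0.40 ± 0.11) and Irf2 (-0.75 ± 0.17), against 6.31% of all genes called lower. Neither was called by edgeR with all 11 libraries (adjusted p = 0.705 and 0.188). Without mouse 2, this comparison put Prdm1, a repressor of Ciita in plasma cells, at 0.50 ± 0.80.

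The genes varied together to different degrees over the 10 libraries without young untreated mouse 2. Pearson's r of log2 CPM between pairs of H2-Aa, H2-Ab1, H2-Eb1 and Cd74 was 0.969 to 0.990. H2-DMb1 gave 0.729 to 0.740 with these 4, H2-DMa 0.350 to 0.475 and Ciita 0.379 to 0.573. The 10 libraries share 4 groups and 1 scaling, the DM genes and Ciita had few reads, and the values are descriptions. Among 10344 other genes with a mean of at least 1 CPM, the profile most like the mean of the 7 was that of Slco3a1, an organic anion transporter (r = 0.981), followed by Foxk2 (0.938), Bdh2 (0.938), Atxn1 (0.935), Jchain (0.929), Srsf2 (0.927), Smad5 (0.922) and Fgf21 (0.916). Jchain, the joining chain of secreted antibodies made by plasma cells, averaged 0 CPM in young untreated mice 1 and 3, 2.78 in aged untreated, 0.0132 in young caerulein and 3.38 in aged caerulein mice, and was at 55.2 CPM in young untreated mouse 2. Slco3a1 was at 5.68 CPM in mouse 2, near the group means of 3.76 to 9.15 CPM.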

How the data were processed

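RNA of whole pancreas was captured by its poly(A) tail and sequenced as read pairs, per the labels' protocols. Reads were aligned to mm10 with HISAT2 2.0.5 and assigned to genes by featureCounts (1.5.0-p3), as the submitters' processing notes state. The strand setting was not given in the sources used here, nor was the annotation release. The authors deposited unnormalised whole-number counts. They also deposited tables of log2 fold changes with adjusted p-values, per the file headers, quoted here only where named. The FPKM table was not used.

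From the counts, edgeR 4.0.16 (R 4.3.3) fitted 1 model of 4 groups to 11 libraries, after filterByExpr (14113 genes, or 13567 without young untreated mouse 2) and TMM scaling. Quasi-likelihood F tests gave 5 comparisons, with Benjamini-Hochberg adjustment across every gene tested and a call at adjusted p below 0.05. Gene levels were expressed as CPM on the TMM scale; sums over lists are CPM of library totals. Correlations used log2(CPM + 0.5). Totals were 14223190 to 26537091 reads, and genes with few reads are imprecise. The method was tested on simulated data.

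All 7 members are named in every comparison, with the tested genes of the 3 pathway lists (1 of them is not reported here), up to 4 of each other list by smallest p, and the 8 most alike profiles. The members and the 16 lists were chosen with earlier results of these data known. Where a symbol occurs in more than 1 row, the first was used. Alternatives were other filters, DESeq2 1.42.0, its size factors, library totals, a fit of just the compared groups, a block by mouse number and each library left out. Fits without young untreated mouse 2 and 1 more library were added after seeing the data.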

Additional observations from a re-analysis of the deposited data

How the results depend on the processing

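The count of the 7 genes called lower after caerulein in young mice was 7 with all libraries. It was 2 with DESeq2 (of 2 with an adjusted p) and 2 with only the groups compared. With young untreated mouse 2 left out, it was 0 with library totals and 1 with DESeq2. The shares of the genes in those fits called lower were 25.3%, 21.6%, 7.95% and 24.8%, in that order. In aged mice none was called by edgeR in all libraries. The count was 1 lower with only the groups compared, where 29.2% of all genes were. It was 4 higher with library totals without mouse 2, where 48.9% of all genes were. With DESeq2 without mouse 2 it was 1 lower, where 25.7% of the genes in the fit were. For untreated mice by age it was 5 lower with no filter on low counts, where 2.35% of all genes were. It was 3 higher there with DESeq2 without mouse 2, where 0.369% were. For caerulein mice by age it was 4 higher with no filter, where 1.88% of all genes were, and with only the groups compared, where 7.81% were. It was also 4 higher with library totals or DESeq2 without mouse 2, where 4.13% and 7.89% were. For the difference of responses it was 6 higher with no filter, where 2.02% of all genes were. Leaving out 1 library, or mouse 2 and 1 more, gave 0 to 7 genes in young caerulein, 0 to 1 in aged caerulein, 0 to 3 in untreated mice by age, 0 to 4 in caerulein mice by age and 0 to 0 for the difference. Signs turned in young caerulein for H2-DMa without mouse 2 (0.33, or 0.32 with DESeq2), and with 1 library or mouse 2 and 1 more left out it ran from -3.24 to 1.16, with 0.34, 0.51 and 0.14 among the values without mouse 2. They also turned with library totals without mouse 2 for H2-Aa (0.32), H2-Ab1 (0.44), H2-Eb1 (0.57), H2-DMa (1.10) and Cd74 (0.36). By age in untreated mice all 7 signs turned without mouse 2. With no call in either fit these were H2-Ab1 (0.85), H2-DMa (0.80), H2-DMb1 (0.57) and Ciita (1.13), and with a call in some fit H2-Aa (1.11, or 1.12 with DESeq2, over -2.75 to 1.297 with libraries left out), H2-Eb1 (1.18, 1.19 with DESeq2 and 1.17 without aged caerulein mouse 3 as well, over -2.74 to 1.38) and Cd74 (1.01 with DESeq2 and 1.00 without aged caerulein mouse 3 as well). The cause was not tested where an alternative changed a call, beyond mouse 2 being absent. The stricter filter tested 5 of the 7 genes.

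Of 15 pairs of libraries with the same mouse number, 5 had a correlation of deviations above 0.1, over -0.211 to 0.159. Pairs with different numbers ran from -0.231 to 0.312. Deviations from means of 2 or 3 libraries are tied to each other, so these values cannot settle whether mouse numbers pair the libraries. With the replicate block, 1 gene was called in young caerulein in place of 7, and the other comparisons stayed at 0. In that young comparison 48.7% of all genes were called in either direction and 22% were called lower. DM genes and Ciita, with 35 reads or fewer per library outside mouse 2, are limited by depth, and the untreated groups by having 2 usable mice each.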

Other observations

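MHC class I genes, which all nucleated cells use to show their own peptides, were measured beside class II. Of 11 listed, 11 were tested without young untreated mouse 2. In aged against young caerulein mice 1 was called higher, against 7.85% of all genes, namely B2m, the class I light chain (0.68 ± 0.15, adjusted p = 0.00976). That call was not made with library totals (0.60, adjusted p = 0.0511). H2-K1 (0.16 ± 0.11) and H2-D1 (0.18 ± 0.10), the class I heavy chains, named after their values were seen, did not pass. Including mouse 2, none of the 11 was called by edgeR between the ages and none had an unadjusted p below 0.05. After caerulein, without mouse 2, 2 were called higher and 4 lower in young mice, against 30.8% and 26.8% of all genes. In aged mice 2 were called higher and 3 lower, against 30.7% and 27.6%. Psmb10, a subunit of the immunoproteasome, fell after caerulein by 1.76 ± 0.10 in young and 2.05 ± 0.10 in aged mice, from 76.0 and 77.1 CPM in young untreated mice 3 and 1 to 20.6 to 25.1 CPM in the 6 treated mice, and it was lower with library totals too (-0.99 and -1.38).

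Of 7 monocyte and neutrophil markers, 3 were called lower in aged than in young caerulein mice and none higher, against 6.31% and 7.85% of all genes. S100a8, a calprotectin subunit, was at -3.95 on the log2 scale in aged against young caerulein mice (adjusted p = 0.0152), S100a9, the other subunit, at -2.94 (adjusted p = 0.0199) and Csf3r, the G-CSF receptor, at -2.52 (adjusted p = 0.0151). Levels of S100a8 were 0.468 to 4.82 CPM in young and 0.0487 to 0.267 CPM in aged caerulein mice. The young mean of S100a8 was 2.13 ± 2.35 CPM (SD, n = 3), so the young mice differed widely. The 7 markers summed to 8.33, 26.3 and 4.26 CPM of library totals in young caerulein mice 1 to 3. In the aged ones the sums were 3.82, 5.59 and 6.33 CPM, so the ages overlapped. Ccr2 (0.63 ± 0.45) and Plac8 (0.45 ± 0.37) had positive values and did not pass. All 3 calls were made without young untreated mouse 2. Including it, none of the 7 monocyte and neutrophil markers was called by edgeR, 3 having an unadjusted p below 0.05.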
